A study of Mus musculus with 6 samples.

Results

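The cells described here were 315 cells of the cluster NMPs A and 1632 cells of the cluster NMPs B from 1 library of mouse stembryos, whole 96 h replicate 2. They were chosen by the cluster name that the study's authors gave each cell in their deposited annotation, and by library. Together they made up 1947 of the 2649 cells of this library and of the 26968 cells of the series. Stembryos are aggregates of mouse embryonic stem cells (mES cells, genotype wt) that elongate and form trunk tissues. All cells described came from wild-type stembryos that had received the Wnt agonist Chiron and, except where 120 h is named, were collected 96 h after aggregation, from 48 to 96 pooled structures per library. Each library is a pool, so 1 library is 1 sample and its cells are not replicates. The study's methods leave out stembryos that failed to elongate at 120 h, and name no such choice at 96 h. Cells were not traced to single stembryos.

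Neuromesodermal progenitors, or NMPs, are cells at the tail end of the embryo that give rise both to the spinal cord and to the presomitic mesoderm (PSM) from which somites bud. They are usually recognised by joint expression of T, or brachyury, a T-box factor of the posterior midline, and Sox2, a factor of neural and pluripotent cells. Wnt and FGF signals maintain them, retinoic acid from the anterior trunk opposes them, and Cdx and Hox factors set the position they give to their descendants.

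The question set by this pair of clusters is how 2 groups of cells that share the name NMPs differed when both were measured in the same library. The pair can be compared in no other library at this size. The other 96 h library, replicate 1, held 2765 NMPs A cells and 43 NMPs B cells, and the 120 h libraries held at most 45 NMPs A and 10 NMPs B cells. The annotation places replicate 2 in batch 4 with V3.1 chemistry and replicate 1 in batch 1 with V3 chemistry, so within replicate 2 both clusters shared batch and chemistry. With 1 library there is no replicate, and no test over cells was made. The authors drew the clusters from the expression of these same cells, so every difference below describes the clusters and is not independent evidence for them.

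Reads had been collapsed to unique molecules (UMIs). UMIs were summed over the cells of each cluster, giving 2864903 for NMPs A and 15325334 for NMPs B, and levels are counts per 1000000 UMIs of each sum (CPM). A ratio is NMPs A over NMPs B, given as log2. The intervals in brackets are exact 95% intervals and cover counting error only, not the spread between stembryos or cultures. Median depth was 8680 UMIs and 3007 genes per cell in NMPs A and 8870.5 UMIs and 3045.5 genes per cell in NMPs B. After each cell was thinned to 4000 UMIs the median was 1822 genes in NMPs A and 1820 in NMPs B, with 1 and 12 shallower cells left out. The median mitochondrial share was 1.99% in both. The authors' phase calls placed 41.0% of NMPs A cells and 40.3% of NMPs B cells in G2M, and 27.0% and 28.7% in S. Of the 1947 cell barcodes, 10 also occurred in another library and 0 in the other 96 h library.

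Both clusters carried the markers of their name. The 11 NMP markers summed to 1663 CPM in NMPs A and 1544 CPM in NMPs B, against 663 CPM in Early PSM, the presomitic mesoderm cluster of the same library (601 cells). The same sum was 1226 CPM in the 38 cells of Spinal cord A and 851 CPM in the 35 cells named Pluripotent/PGC. Each of the 11 was at 10 CPM or more in both NMP clusters. So were 10 of the 11 in Early PSM, 10 in Spinal cord A and 9 in Pluripotent/PGC. The 7 PSM markers summed to 843 CPM in NMPs A and 623 CPM in NMPs B, with 1502 CPM in Early PSM. The 8 markers of epiblast or pluripotent cells summed to 153 CPM in NMPs A and 269 CPM in NMPs B, with 1593 CPM in Pluripotent/PGC cells. Of the 8, 3 were at 0 in NMPs A, 3 in Early PSM and 0 in NMPs B. The sum of NMPs B holds more UMIs than the sums of NMPs A and Early PSM, so a 0 is less likely there. The 7 neural markers summed to 97.7 CPM in NMPs A and 90.6 CPM in NMPs B, and Olig2 was at 0 in both. Markers of somite (10.5 and 19.1 CPM, with Pax1 at 0), endoderm (12.6 and 11.5 CPM) and germ cells (1.75 and 2.94 CPM, with Dppa3 at 0) were low in NMPs A and NMPs B, in this order.

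The clusters were alike over most genes. Of 7870 genes with a mean of at least 10 CPM over both clusters, 11 were at least 2-fold higher in NMPs A (0.14%) and 35 at least 2-fold lower (0.445%), which is 46 or 0.584% in both directions. The median log2 ratio over the 7870 genes was 0.01. A gene past 2-fold is called here, with no statement of significance. NMPs A and Early PSM of the same library were further apart, with 339 of 7849 genes called (4.32%), as were NMPs B and Early PSM, with 334 of 7866 (4.25%).

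Cells of 1 cluster name in 2 libraries were also further apart than both clusters within the library. With every sum thinned to the 2864903 UMIs of NMPs A, 65 of 7847 genes were called between NMPs A and NMPs B of replicate 2 (0.828%). NMPs A of replicate 2 over NMPs A of replicate 1 gave 212 of 7705 genes (2.75%). NMPs B of replicate 2 over NMPs A of replicate 1, the pair that a comparison of the largest NMP cluster of each library would use, gave 322 of 7735 (4.16%). Library, batch, chemistry and pool cannot be told apart in the last 2 counts, and in the last of them the cluster differs too.

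**Figure D1:**
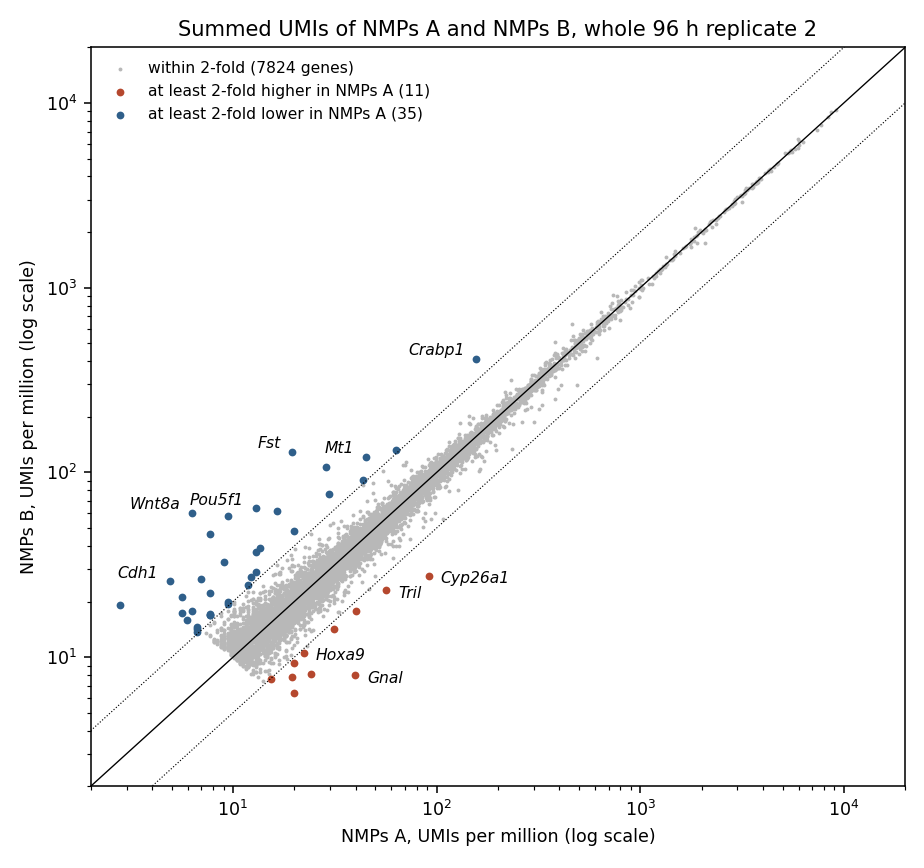
Level of every gene compared in NMPs A (x axis) and NMPs B (y axis) of whole 96 h replicate 2, in CPM on log axes. The solid line marks equal levels, the dotted lines 2-fold, and of 7870 genes the 11 called higher in NMPs A are red and the 35 called lower are blue.

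Genes of the epiblast and of pluripotent cells were among those lower in NMPs A. Pou5f1, the homeodomain factor Oct4 of pluripotent cells and epiblast, was at 9.42 CPM in NMPs A and 57.7 CPM in NMPs B, a log2 ratio of -2.62 (-3.23 to -2.06). Dppa5a, a gene of naive stem cells and germ cells, was at 16.4 CPM in NMPs A and 61.5 CPM in NMPs B (-1.91, interval -2.36 to -1.48). Klf5, a Krüppel-like factor of naive cells, was at 6.63 and 14.6 CPM in NMPs A and NMPs B (-1.13), and Pou3f1, a POU factor of primed epiblast and neural plate, at 9.42 and 19.5 CPM (-1.05). In S cells alone Pou3f1 was at -1.84, and Dppa5a was further apart too. Pou3f1 was under 2-fold in G1 cells (-0.85) and in G2M cells (-0.85), and Dppa5a was at -1.54 with thinned cells. Klf5 was under 2-fold with thinned cells (-0.84), in S cells (-0.97) and with an upper limit of 1.5 times the mean UMIs (-0.97).

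Not every pluripotency gene followed. Of 7 epiblast genes compared, 2 were called lower and 0 higher, with a median log2 ratio of -0.27, and of 3 naive genes compared, 2 were called lower and 0 higher, with a median of -1.13. Lin28a, an RNA-binding repressor of let-7, was level at 303 CPM in NMPs A and 316 CPM in NMPs B (-0.06). Fgf4, an FGF ligand of naive cells and of the primitive streak, stood at 49.6 CPM in NMPs A and 27.4 CPM in NMPs B (0.85). Many listed members were under 10 CPM on average and were not compared: 9 of 16 epiblast genes and 9 of 12 naive genes.

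Pou5f1 was detected in 3.50% of NMPs A cells and 19.8% of NMPs B cells after thinning to 4000 UMIs, against 88.6% of Pluripotent/PGC cells and 9.72% of Early PSM cells, whose median depth was 8423 UMIs. The share in NMPs A lay under that in Early PSM and is not read as expression, and how much of either share came from free RNA was not tested. Dppa5a was detected in 7.64% of NMPs A and 14.8% of NMPs B cells, against 9.38% of Early PSM and 100% of Pluripotent/PGC cells, where its level was 4293 CPM. The share in NMPs A was again no higher than in Early PSM. In NMPs B, the 82 cells with the most Dppa5a (5% of the cluster) held 50.6% of its UMIs, and the highest cell held 23. For Pou5f1 they held 33.2%, with 7 UMIs in the highest cell. The marker sum given above holds Pou5f1 and Epcam themselves. Without both, the other 6 markers summed to 94.9 CPM in NMPs A and 123 CPM in NMPs B, with 93.4 CPM in Early PSM and 698 CPM in Pluripotent/PGC cells, and their part in the result was not tested.

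Among genes of epithelial adhesion, 1 was called. Cdh1, which encodes E-cadherin, was at 4.89 CPM in NMPs A and 25.7 CPM in NMPs B (-2.40, interval -3.28 to -1.63). Its ratio was -1.04 in cells placed in S and -3.61 in cells placed in G2M, with 14 UMIs of Cdh1 in NMPs A in all. Epcam, an epithelial adhesion molecule also present on stem cells, was at 48.5 CPM in NMPs A and 88.0 CPM in NMPs B (-0.86). Of 7 adhesion genes compared, 1 was called lower and 0 higher, with a median of -0.39. The junction gene Tjp1 was nearly level, at 68.4 CPM in NMPs A and 66.9 CPM in NMPs B, and F11r, a tight junction molecule, stood at 66.0 CPM in NMPs A and 50.4 CPM in NMPs B (0.39). Vim, the intermediate filament of mesenchyme, was also lower in NMPs A, at 70.5 CPM against 113 CPM in NMPs B (-0.68), and Cdh2, which encodes N-cadherin, was at 134 CPM in NMPs A and 113 CPM in NMPs B (0.24).

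A Wnt ligand and an activin antagonist were lower in NMPs A. Wnt8a, a Wnt ligand of the early primitive streak, was at 6.28 CPM in NMPs A and 60.4 CPM in NMPs B, the lowest ratio of all genes compared (-3.27, interval -4.03 to -2.60). It was detected in 3.82% of NMPs A and 20.8% of NMPs B cells, against 4.36% of Early PSM cells, so the share in NMPs A was no higher than in Early PSM. Its 18 UMIs in NMPs A gave -4.95 in S cells and -2.63 with thinned cells. Fst, the secreted activin antagonist follistatin, was at 19.5 CPM in NMPs A and 129 CPM in NMPs B (-2.73, interval -3.14 to -2.34). It was detected in 4.14% of NMPs A, 26.2% of NMPs B and 14.6% of Early PSM cells, and its level in Pluripotent/PGC cells was 395 CPM. In S cells alone its ratio was -1.97.

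The other genes of the Wnt ligand list had ratios above 0. Wnt3a, the ligand that maintains the tail bud, was at 35.6 CPM in NMPs A and 22.4 CPM in NMPs B (0.67), Wnt5a at 37.7 and 27.4 CPM (0.46), and Rspo3, which amplifies Wnt signals, at 410 and 297 CPM (0.46). Of 6 genes in this list 5 had a ratio above 0, and Wnt8a alone was called. The Wnt response list held 11 compared genes, of which 8 lay above 0 and 0 were called, with a median of 0.19. Axin2, a feedback inhibitor of the pathway, was at 127 CPM in NMPs A and 80.8 CPM in NMPs B (0.66), and Notum, which inactivates Wnt ligands, at 59.7 and 40.9 CPM (0.54). Lef1 was level, at 109 CPM in NMPs A and 118 CPM in NMPs B (-0.11). Of 7 BMP genes compared, Fst was the 1 called, and Id2, a target of BMP signals, was at 92.1 CPM in NMPs A and 67.3 CPM in NMPs B (0.45).

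The 5 FGF ligands compared had a higher level in NMPs A, with a median log2 ratio of 0.63, and 0 were called. Fgf17 was at 61.1 CPM in NMPs A and 34.5 CPM in NMPs B (0.82), Fgf3 at 49.2 and 31.9 CPM (0.63), and Fgf8 at 331 and 299 CPM (0.14). Fgf8 turned to -0.03 in G2M cells, and in replicate 1 only Fgf17 of the 5 was higher in NMPs A. Of the 10 FGF response genes, none was called and the median was 0.02. Etv4, an ETS factor downstream of FGF, was at 159 CPM in NMPs A and 151 CPM in NMPs B (0.07), and Dusp6, a phosphatase that limits the pathway, at 62.8 and 65.4 CPM (-0.06).

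Genes of retinoic acid handling were called in both directions. Cyp26a1, the tail bud enzyme that breaks down retinoic acid, was at 91.5 CPM in NMPs A and 27.6 CPM in NMPs B, a log2 ratio of 1.73, the highest among genes with a mean of at least 50 CPM. Counting intervals were 80.7 to 103 CPM in NMPs A and 25.03 to 30.36 CPM in NMPs B. It was detected in 27.7% of NMPs A and 8.09% of NMPs B cells, with 1.84% in Early PSM. The most Cyp26a1-rich 5% of cells held 25.2% of its UMIs in NMPs A (16 cells) and 51.3% in NMPs B (82 cells). The ratio was 1.02 in S cells, 1.67 in G1 cells and 1.95 in G2M cells. Crabp1, a cytoplasmic retinoic acid binding protein, was at 156 CPM in NMPs A and 410 CPM in NMPs B (-1.39, interval -1.53 to -1.25). Crabp1 was at 802 CPM in Early PSM and 653 CPM in the 38 cells of Spinal cord A, above both NMP clusters.

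Of 8 retinoic acid genes compared, Cyp26a1 was called higher and Crabp1 lower, with a median of 0.46. Stra6, a retinol transporter, was at 29.0 CPM in NMPs A and 18.1 CPM in NMPs B (0.68), and Dhrs3, which returns retinal to retinol, at 16.8 and 9.59 CPM (0.80). The receptor Rara was level at 22.3 CPM in NMPs A and 21.6 CPM in NMPs B. The sequence of the Cyp26a1 window is shown because this gene had the highest ratio of the genes above 50 CPM. The 250 bases before its RefSeq start (GRCm38.p6, chr19:37697558-37697807, plus strand) hold 1 match to a direct repeat of the kind bound by retinoic acid receptors, searched as 2 copies of AGTTCA with 5 bases of any kind between them. The match, in capitals, reads on the minus strand and lies 32 to 16 bases before the start.
Cyp26a1: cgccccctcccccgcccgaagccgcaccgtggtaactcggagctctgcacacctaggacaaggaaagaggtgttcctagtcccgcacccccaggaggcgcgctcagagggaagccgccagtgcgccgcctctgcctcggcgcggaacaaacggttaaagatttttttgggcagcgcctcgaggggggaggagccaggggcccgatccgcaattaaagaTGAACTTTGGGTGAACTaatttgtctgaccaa
Searched on both strands, this exact spelling occurred in 7 of 32851 RefSeq promoter windows of the same length (0.0213%). It is the spelling that the Cyp26a1 window holds. Other spellings of the repeat were not counted, so the share is not that of all such repeats. A match is a description of letters and was not set against any measure of binding.

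Metallothioneins, small proteins that bind zinc and copper, were lower in NMPs A. Mt1 was at 45.0 CPM in NMPs A and 122 CPM in NMPs B (-1.44, interval -1.71 to -1.18), with 1013 CPM in Pluripotent/PGC cells. Mt2, chosen after its values were seen, was at 12.9 CPM in NMPs A and 64.1 CPM in NMPs B (-2.31), with 459 CPM in Pluripotent/PGC cells. Mt1 was detected in 15.9% of NMPs A, 26.9% of NMPs B and 16.6% of Early PSM cells. The windows of 250 bases before both RefSeq starts (GRCm38.p6, Mt1 chr8:94178839-94179088 and Mt2 chr8:94172368-94172617, plus strand) are shown because they are neighbours with the same direction. Capitals mark matches to TGCNCNC on either strand, a pattern looser than the core of the metal response element, with any base at each N.
Mt1: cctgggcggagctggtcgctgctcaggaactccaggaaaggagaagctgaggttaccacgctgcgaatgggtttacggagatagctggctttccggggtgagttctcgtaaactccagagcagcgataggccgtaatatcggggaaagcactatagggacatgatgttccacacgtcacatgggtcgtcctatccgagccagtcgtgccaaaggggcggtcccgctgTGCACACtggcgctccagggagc
Mt2: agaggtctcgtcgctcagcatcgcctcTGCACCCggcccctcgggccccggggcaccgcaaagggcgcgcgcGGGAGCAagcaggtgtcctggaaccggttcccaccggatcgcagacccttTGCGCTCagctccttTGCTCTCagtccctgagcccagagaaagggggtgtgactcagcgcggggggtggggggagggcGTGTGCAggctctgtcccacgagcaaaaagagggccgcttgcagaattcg
This loose pattern occurred 1 time before Mt1 and 5 times before Mt2, so a match need not be a metal response element. Bases outside these windows were not searched. Of 32851 windows 44.4% held at least 1 match, and 1.28% held 4 or more.

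Other genes of the rule that were lower in NMPs A came from several functions. Sprr2a3, a small proline-rich protein of epithelia, was at 28.6 CPM in NMPs A and 107 CPM in NMPs B (-1.91). It belongs to a family of near-identical copies, so its counts are uncertain, and its ratio was -2.76 in G1 cells. Chchd10, a mitochondrial protein, was at 29.7 and 76.7 CPM in NMPs A and NMPs B (-1.37), and Apoe, a lipid carrier, at 43.6 and 91.0 CPM (-1.06). Both were higher in Pluripotent/PGC cells, with 641 CPM of Chchd10 and 387 CPM of Apoe. Other genes lower in NMPs A than in NMPs B were not high in Pluripotent/PGC cells. Crabp1 (63.5 CPM), Vim (66.4 CPM), Pou3f1 (5.77 CPM) and Sprr2a3 lay there under their NMPs A levels. Wnt8a (54.8 CPM) and Stmn2 (72.1 CPM) lay there between their levels in NMPs A and NMPs B. Ifitm3, an interferon-induced membrane protein also found on germ cells, was at 43.3 CPM in NMPs A and 85.6 CPM in NMPs B (-0.98). Stmn2, a regulator of microtubules in neurons, was at 54.5 CPM in NMPs A and 102 CPM in NMPs B (-0.91), and Ddit4, an inhibitor of mTORC1 induced by stress and hypoxia, at 68.4 and 110 CPM (-0.68).

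Further genes were called lower in NMPs A at means under 50 CPM, and those named in this paragraph were chosen after their values were seen, apart from Trh, which a list holds. Bst2, the antiviral membrane protein tetherin, was at 7.68 CPM in NMPs A and 46.3 CPM in NMPs B (-2.59), and Alox15, a lipoxygenase, at 2.79 and 19.2 CPM (-2.78). Apln, the ligand apelin, was at 5.58 CPM in NMPs A and 21.1 CPM in NMPs B (-1.92). F2rl1, a receptor activated by proteases, was at 6.98 and 26.4 CPM in NMPs A and NMPs B (-1.92). Trh, the precursor of thyrotropin-releasing hormone, was at 6.28 CPM in NMPs A and 17.9 CPM in NMPs B (-1.51), with 490 CPM in Pluripotent/PGC cells.

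**Figure D2:**
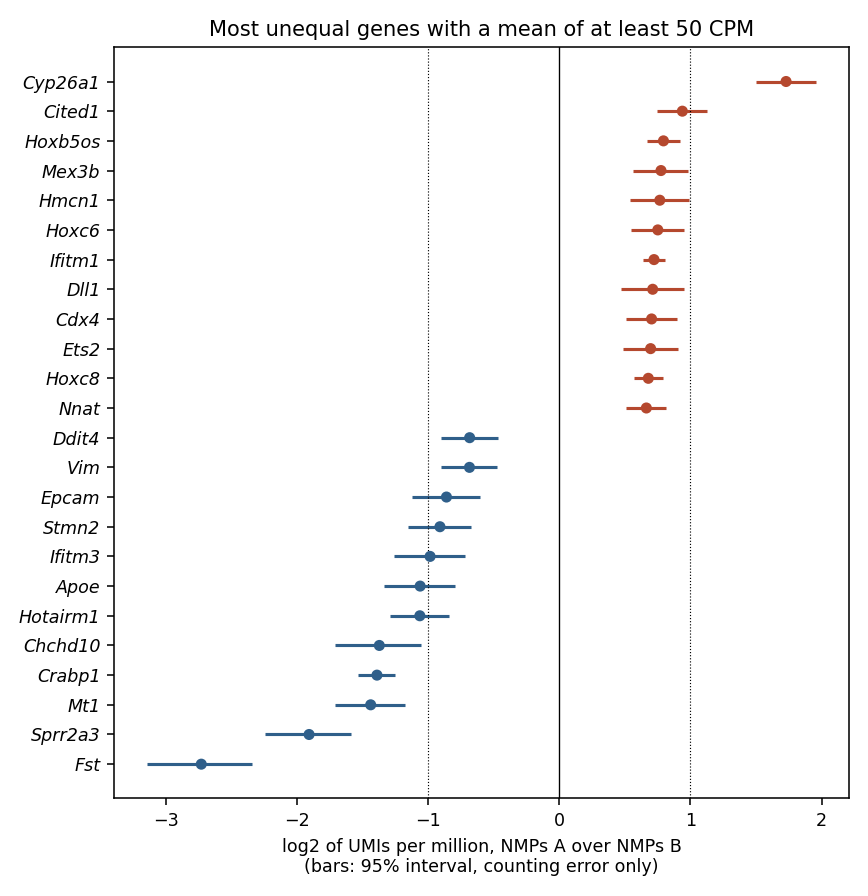
Log2 ratio of CPM, NMPs A over NMPs B, for the 12 highest and the 12 lowest genes with a mean of at least 50 CPM, with exact 95% intervals of counting error as bars and 2-fold as dotted lines. Cyp26a1 at 1.73 lies apart from the other 11 higher genes, which lie between 0.66 and 0.94, and Fst at -2.73 is the lowest.

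Genes called higher in NMPs A were fewer than those called lower. Of the 12 genes with the highest ratios above 50 CPM, only Cyp26a1 was past 2-fold. Cited1, a transcriptional coactivator of early PSM, was at 108 CPM in NMPs A and 56.1 CPM in NMPs B (0.94), and Dll1, the Notch ligand of PSM, at 65.6 and 40.1 CPM (0.71). Ifitm1, a membrane protein of the primitive streak and early mesoderm, was at 491 CPM in NMPs A and 298 CPM in NMPs B (0.72). All 3 were higher still in Early PSM, at 545 CPM, 226 CPM and 1672 CPM, and without Dll1 and Tbx6 the other 5 PSM markers summed to 756 CPM in NMPs A and 567 CPM in NMPs B, with 1099 CPM in Early PSM. The part of PSM markers in these differences was not tested. Of 8 PSM genes compared, 7 had a ratio above 0 and 0 were called, with a median of 0.42. Tbx6, the T-box factor that commits cells to PSM, was at 20.6 CPM in NMPs A and 15.8 CPM in NMPs B (0.38, interval -0.05 to 0.80), and was detected in 8.60% of NMPs A and 6.05% of NMPs B cells, against 51.4% of Early PSM and 0% of the 35 Pluripotent/PGC cells.

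Other genes of the rule were not above their NMPs A level in Early PSM, or were close to it. Mex3b, an RNA-binding protein, was at 86.2 CPM in NMPs A, 50.4 CPM in NMPs B and 50.8 CPM in Early PSM. Ets2, an ETS factor, was at 88.0 CPM in NMPs A, 54.3 CPM in NMPs B and 52.7 CPM in Early PSM. Nnat, an imprinted gene that codes for a small membrane protein, was at 161 CPM in NMPs A, 102 CPM in NMPs B and 101 CPM in Early PSM. Hmcn1, an extracellular matrix protein, was at 74.3 CPM in NMPs A, 43.7 CPM in NMPs B and 89.9 CPM in Early PSM.

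At means under 50 CPM, 10 further genes were called higher in NMPs A, and those named in this paragraph were chosen after their values were seen. Gnal, a G protein alpha subunit, was at 39.8 CPM in NMPs A and 7.96 CPM in NMPs B, the highest ratio of all genes compared (2.32, interval 1.94 to 2.70). Apcdd1, a membrane inhibitor of Wnt signals, was at 24.1 CPM in NMPs A and 8.09 CPM in NMPs B (1.57), and Itgb8, an integrin subunit, at 19.9 and 6.39 CPM (1.64). Tril, a coreceptor of Toll-like receptors, was at 56.5 CPM in NMPs A and 23.0 CPM in NMPs B (1.30), and Zbtb16, a zinc finger factor, at 40.1 and 17.7 CPM (1.18).

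The NMP markers, T and Sox2 among them, were all within 2-fold between the clusters. The largest of their ratios were those of Fgf17 (0.82), Cdx4 (0.70) and Wnt3a (0.67). T was at 184 CPM in NMPs A and 147 CPM in NMPs B (0.32, interval 0.18 to 0.46), and Sox2 at 121 and 143 CPM (-0.24, interval -0.41 to -0.08). Nkx1-2, a homeobox gene of the caudal epiblast, was at 143 CPM in NMPs A and 203 CPM in NMPs B (-0.50). Evx1, a homeobox gene of the posterior streak, was at 56.2 and 47.3 CPM in NMPs A and NMPs B, and the Wnt-induced factors Sp5 (169 and 155 CPM) and Sp8 (96.0 and 78.7 CPM) lay close to each other too. Mnx1, a homeobox gene of tail bud and notochord, was at 32.8 CPM in NMPs A and 17.6 CPM in NMPs B (0.90), and Hes3, a Hes repressor, at 17.5 and 30.2 CPM (-0.79). Of the 16 genes in the NMP list, Cyp26a1 was the 1 called, 12 had a ratio above 0, and the median was 0.23.

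Joint detection of T and Sox2 was read in single cells. After thinning to 4000 UMIs, both genes were detected in 55 of 314 NMPs A cells, or 17.5% (13.5 to 22.2), and in 185 of 1620 NMPs B cells, or 11.4% (9.91 to 13.1). In Early PSM the share was 1.17%. In Spinal cord A it was 4 of 38 cells, or 10.5% (2.94 to 24.8), close to NMPs B. In Pluripotent/PGC cells it was 2 of 35, or 5.71% (0.70 to 19.2). Joint detection was thus not particular to the NMP clusters. T without Sox2 was seen in 31.8% of NMPs A and 24.9% of NMPs B cells, and Sox2 without T in 18.2% and 27.6%. With or without the other gene, T was detected in 49.4% of NMPs A and 36.4% of NMPs B cells. For Sox2 these shares were 35.7% and 39.0%. Whether the joint shares differ from those expected from each gene alone was not tested. Without thinning, both genes were detected in 38.7% of NMPs A and 31.1% of NMPs B cells. At 6000 UMIs the shares were 24.9% and 19.05%, and at 2000 UMIs 3.81% and 4.35%, where the order turned and the intervals overlapped. The shares count cells with a UMI and not cells that express both genes.

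**Figure D3:**
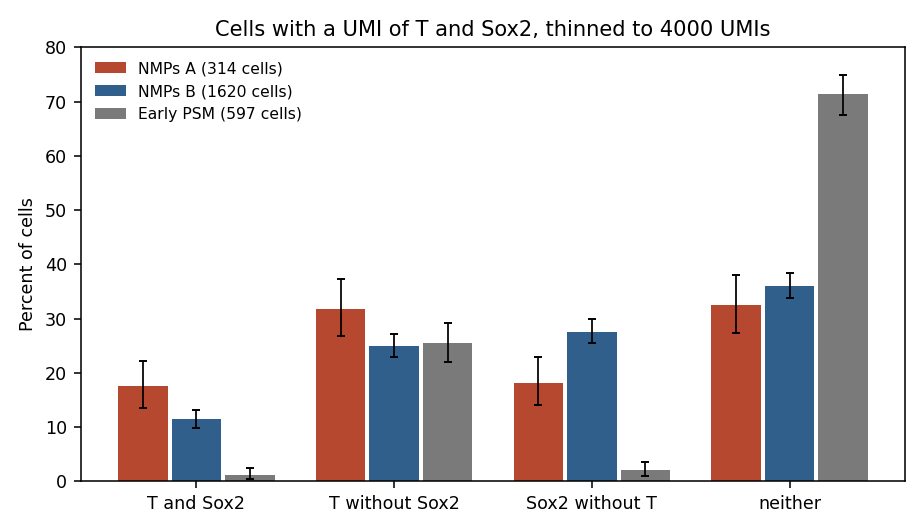
Percent of cells with a UMI of T and Sox2, of T alone, of Sox2 alone or of neither after thinning to 4000 UMIs, in NMPs A, NMPs B and Early PSM of whole 96 h replicate 2, with exact 95% intervals as error bars. Joint detection was 17.5% in NMPs A and 11.4% in NMPs B, and Early PSM cells mostly held neither.

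Hox genes, whose order of activation follows their place in the cluster, were compared next. Genes of low paralog number lie at the end that is switched on first. Of 21 Hox genes compared, Hoxa9 was called higher and Hoxb5 lower in NMPs A. Hoxa9 was at 22.3 CPM in NMPs A and 10.6 CPM in NMPs B (1.08, interval 0.64 to 1.51), and at 0.573 CPM in Early PSM. Hoxb5 was at 7.68 CPM in NMPs A and 22.4 CPM in NMPs B (-1.54, interval -2.24 to -0.92), with -0.93 in G1 cells alone.

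The HoxC genes all had a higher level in NMPs A. The 5 compared had a median log2 ratio of 0.68. Hoxc8 was at 301 CPM in NMPs A and 188 CPM in NMPs B (0.68, interval 0.57 to 0.79), and was detected in 63.7% and 44.6% of their cells, with 7.87% in Early PSM. Hoxc6 was at 93.9 and 55.8 CPM in NMPs A and NMPs B (0.75), Hoxc9 at 42.9 and 25.4 CPM (0.75), Hoxc5 at 22.3 and 15.1 CPM (0.57), and Hoxc4 at 62.8 and 51.1 CPM (0.30). The annotated Hoxc5 transcripts overlap those of Hoxc6, Hoxc8 and Hoxc9 on the same strand, and how counts were divided among them is uncertain. These genes were low in Early PSM, where Hoxc8 was at 22.9 CPM and Hoxc6 at 9.36 CPM.

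HoxB and HoxA genes went both ways. Of 9 HoxB genes 3 had a ratio above 0, with a median of -0.09. Hoxb4 (161 and 126 CPM, 0.35) and Hoxb3 (89.4 and 70.7 CPM, 0.34) were higher in NMPs A, and Hoxb2 was lower, at 128 CPM in NMPs A and 162 CPM in NMPs B (-0.34). Hoxb9 (302 and 287 CPM) and Hoxb8 (268 and 279 CPM) had ratios of 0.07 and -0.06 with intervals that hold 0. Of 6 HoxA genes 4 lay above 0, with a median of 0.13. Hoxa7 was at 87.6 CPM in NMPs A and 60.6 CPM in NMPs B (0.53), and Hoxa5 at 10.1 and 18.3 CPM (-0.85). The ratio of Hoxa5 was -0.16 in S cells and past 2-fold in G2M cells, with 29 UMIs in NMPs A in all.

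By paralog, 6 of 9 genes of numbers 1 to 4 lay above 0 (median 0.16), 2 of 5 genes of numbers 5 and 6 (median -0.09) and 5 of 7 genes of numbers 7 to 9 (median 0.53). The 10 genes of paralogs 10 to 13 in the table summed to 2 UMIs in NMPs A and 14 UMIs in NMPs B, too few to compare. Of HoxD only Hoxd4 was compared, at 47.8 CPM in NMPs A and 36.1 CPM in NMPs B (0.41), and its transcripts overlap those of Hoxd3 on the same strand. Hoxd9 had 16 UMIs in NMPs A and 37 in NMPs B, or 5.58 and 2.41 CPM.

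Noncoding transcripts of the clusters differed in both directions. Hoxb5os, annotated opposite to Hoxb5 and Hoxb6, was at 234 CPM in NMPs A and 135 CPM in NMPs B (0.79). Hotairm1, a noncoding RNA of the HoxA cluster, was at 63.5 CPM in NMPs A and 133 CPM in NMPs B (-1.06). Whether counting used the strand is not given in the sources used here, so each may share reads with a gene on the other strand. The Cdx genes, homeobox regulators of the trunk upstream of Hox genes, were level for Cdx2 (368 CPM in NMPs A, 354 CPM in NMPs B, 0.06) and Cdx1 (220 and 238 CPM, -0.11). Cdx4 was at 98.1 CPM in NMPs A and 60.2 CPM in NMPs B (0.70, interval 0.51 to 0.90), with 14.7 CPM in Early PSM.

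Of 8 neural genes compared, Crabp1 was the 1 called, with a median of -0.27, and of the endoderm list only Trh, called lower, was compared. In the lists that follow no gene was called. Of 19 glycolysis and hypoxia genes, Gapdh alone had a ratio above 0 and the median was -0.11. Slc2a1, a glucose transporter, was at 732 CPM in NMPs A and 912 CPM in NMPs B (-0.32), and Aldoa, a glycolytic enzyme, at 769 and 901 CPM (-0.23). Of 10 p53 targets 1 lay above 0, with a median of -0.16, and Cdkn1a, the cell cycle inhibitor p21, was at 91.1 CPM in NMPs A and 118 CPM in NMPs B (-0.38). Of 17 imprinted genes 5 lay above 0, with a median of -0.20, and the maternally expressed noncoding RNAs Meg3 (382 and 508 CPM, -0.41) and Rian (130 and 186 CPM, -0.51) were both lower in NMPs A. Of 16 genes of G2/M 14 lay above 0, with a median of 0.11, and the 16 S phase genes had a median of -0.05. Of 11 genes of trunk to tail timing with Myc genes and D cyclins, 8 lay above 0 with a median of 0.09. Among them Mycn was at 66.3 CPM in NMPs A and 43.0 CPM in NMPs B (0.63), Gdf11, a ligand of the trunk to tail transition, at 53.1 and 36.0 CPM (0.56), and Hmga2, a chromatin protein repressed by let-7, at 262 and 187 CPM (0.49).

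The same pair was then read in the other 96 h library, with only 43 NMPs B cells, fewer than the 50 set for a cluster, and thus with wide counting intervals. Of 7544 genes compared there, 162 were called (2.15%). Of the 11 genes called higher in replicate 2, 10 had the same direction in replicate 1 and 4 were past 2-fold. Of the 35 called lower, 31 had the same direction and 23 were past 2-fold, and 0 of all 46 were past 2-fold the other way. These counts include genes with a mean under 10 CPM in replicate 1. Of those at 10 CPM or more there, 3 of 9 called higher and 17 of 23 called lower were past 2-fold the same way. Over all 7870 genes 4556 had the same direction. The clusters were drawn over pooled cells of all libraries, so this count is not a replication.

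Several genes had the same direction in that library, though Wnt8a and Fst were at lower levels in both clusters than in replicate 2. Wnt8a was at 2.38 CPM in NMPs A and 14.9 CPM in NMPs B of replicate 1 (-2.65), Fst at 8.11 and 68.3 CPM (-3.07), Pou5f1 at 6.12 and 35.2 CPM (-2.52), and Cdh1 at 3.29 and 23.5 CPM (-2.83). Epcam was at 60.9 CPM in NMPs A and 176 CPM in NMPs B of replicate 1 (-1.53). Cyp26a1 was at 69.3 and 36.3 CPM (0.93, interval 0.45 to 1.47), and Ifitm1 at 674 and 375 CPM (0.85). Other ratios were small there: Hoxc8 was at 321 CPM in NMPs A and 283 CPM in NMPs B (0.18), Cited1 at 166 and 149 CPM (0.15, interval -0.09 to 0.40), and Mex3b at 91.5 and 83.2 CPM (0.14).

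Of 61 named genes with a mean of at least 10 CPM in replicate 2, 10 had the opposite sign in replicate 1. They were Crabp1, Pou3f1, T, Sox2, Cdx2, Wnt3a, Fgf8, Hoxb7, Hoxb2 and Hoxc5, and for Crabp1, T, Sox2 and Hoxb7 the interval in replicate 1 did not hold 0. Crabp1 was at 43.6 CPM in NMPs A and 28.8 CPM in NMPs B (0.60, interval 0.05 to 1.20), while both NMP clusters of replicate 2 were above 100 CPM. T was at 213 CPM in NMPs A and 256 CPM in NMPs B of replicate 1 (-0.26), and Sox2 at 75.4 and 57.6 CPM (0.39, interval 0.00 to 0.80). Hoxb7 was at 48.6 CPM in NMPs A and 29.9 CPM in NMPs B of replicate 1 (0.70), and Wnt3a at 33.1 and 43.7 CPM (-0.40). Of list members outside these 61, Fgf4 was at 19.7 CPM in NMPs A and 39.5 CPM in NMPs B of replicate 1, also the opposite sign, as for Rspo3 (-0.02). In NMPs C of 120 h replicate 2, a later progenitor cluster of the same batch with 651 cells, Wnt8a was at 2.05 CPM, Fst at 1.91 CPM, Pou5f1 at 1.91 CPM and Cdh1 at 1.23 CPM. Hoxa9 was at 178 CPM, Hoxc8 at 269 CPM and Cyp26a1 at 41.0 CPM in NMPs C.

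**Figure D4:**
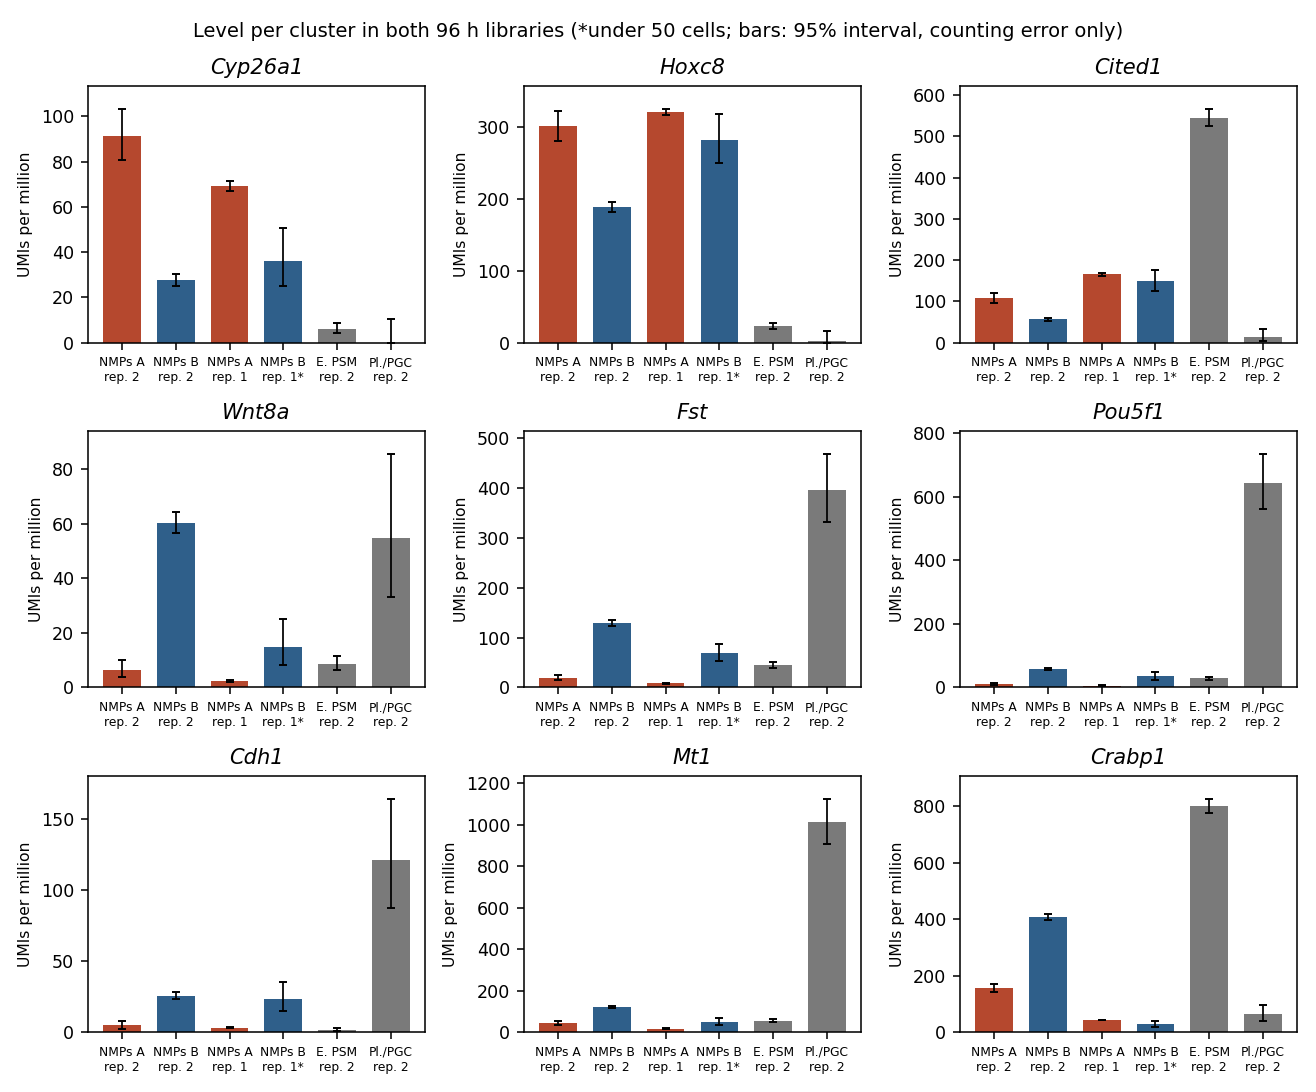
Level of 9 genes in NMPs A and NMPs B of both 96 h libraries and in Early PSM (E. PSM) and Pluripotent/PGC (Pl./PGC) cells of replicate 2, in CPM, with exact 95% Poisson intervals of counting error as error bars. Wnt8a, Fst, Pou5f1, Cdh1 and Mt1 were lower in NMPs A than in NMPs B in both libraries, and the ratios of Crabp1 had opposite signs.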

How the data were processed

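Single-cell RNA of wild-type stembryos was measured in 6 libraries on the 10x platform. The deposited count table holds UMI counts of 25595 genes in 26968 cells. The submitters' processing notes name Cell Ranger 6.0, Seurat 4.0.2 and mm10, and the study's methods a modified Ensembl annotation. The authors removed cells by limits on UMIs per library, also meant to remove doublets, and by mitochondrial percent. In the deposited table the library used here ran from 0.377 to 2.28 times its mean UMI count. The authors then merged the libraries, regressed mitochondrial percent and cell cycle scores, and clustered the pooled cells. The deposited annotation gives per cell a mitochondrial percent, an S and a G2/M score, phase, batch, chemistry and cluster. Scores entered no comparison.

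UMIs were summed per cluster and scaled to counts per 1000000 (Python 3.11.15, scipy 1.17.1). Genes with a mean of at least 10 CPM were compared, with 3 counts in place of 0. Intervals are exact Poisson, conditional binomial and Clopper-Pearson intervals at 95% and cover counting error only. No test was run, because 1 library gives no replicate. The calculation was tested on simulated data. No doublet caller was run, and a stricter upper limit of 1.5 times the mean was tried. Alternatives used edgeR 4.0.16 TMM factors, DESeq2 1.42.0 size factors, weighting by cell, thinning, phases, filters and folds.

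Named genes were the 12 highest and 12 lowest ratios at 50 CPM or more without Gm and Rik symbols, called members of 32 lists, NMP markers, and Hox and Cdx genes. The members and lists were chosen with earlier results of these data known. Overlaps were read from GENCODE M21 (GRCm38), and promoter windows from RefSeq (GRCm38.p6), with a motif match for the 3 genes shown. The number of deposited per-sample columns not used was 0. Results for a few genes are not reported here.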

Additional observations from a re-analysis of the deposited data

How the results depend on the processing

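The counts of called genes were 10 higher and 36 lower with TMM factors and with DESeq2 size factors, 12 and 36 with the mean CPM of single cells, and 13 and 37 under the stricter UMI limit. They moved to 26 and 56 with cells thinned to 4000 UMIs, 75 and 120 with G1 cells, 96 and 139 with S cells and 30 and 65 with G2M cells, settings that leave fewer UMIs. At 50 CPM they were 1 and 7 of 3081, at 1.5-fold 104 and 160, and at 4-fold 1 and 7. With NMPs B thinned to the total of NMPs A, an alternative added after seeing the data, they were 23 and 42. Without a filter they were 3723 and 970 of 19474 genes. The unfiltered count of higher genes takes in genes at 0 UMIs in NMPs A. There 3 counts stood in for 0, and NMPs A held fewer UMIs than NMPs B. Hoxa10, with 0 UMIs in NMPs A and 4 in NMPs B, was scored at 2.00. The unfiltered counts are thus not read as a direction. Of the 46 genes, 45 or more kept their direction and 36 or more stayed past 2-fold in the 8 settings of scaling, weighting, depth and phase. The share of cells with both T and Sox2 was 38.7% in NMPs A and 31.1% in NMPs B without thinning, 24.9% and 19.05% at 6000 UMIs, and 3.81% and 4.35% at 2000 UMIs. Of 61 named ratios at 10 CPM or more, 16 left their counting interval in G1, 17 in S, 7 in G2M and 7 with thinning. No paired analysis was possible because both clusters came from 1 library, and leaving out a replicate was not possible either. Depth limited genes near 10 CPM.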
